A study of Mus musculus with 6 samples.

Results

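The nuclear genes for the protein subunits of the mitochondrial ribosome were followed across mouse livers that had been induced to make an SV40 oncoprotein. They were taken as all probe sets whose single gene symbol in the platform annotation begins with Mrpl or Mrps and a digit. This gave 160 probe sets for 76 genes, 47 named Mrpl and 29 named Mrps, of 18193 genes in all with a single symbol on the arrays. A further 4 probe sets that carried several symbols were left out. All livers came from males 32 to 37 days old with a hybrid B6SJL background. The drinking water of every mouse held 25 µg/ml doxycycline and 2.5% sucrose over 4 days. LT mice carried ApoErtTA:TRE2-TAg transgenes and were induced to make the SV40 large T antigen (LT) and the small t antigen (st). 17kT mice are labelled with the same transgene name, in part written TRE2-TA, and were induced to make 17kT and st. WT mice had no transgene but received the same doxycycline and sucrose. Large T binds the retinoblastoma proteins and p53, and 17kT is a short form of T antigen that keeps the retinoblastoma binding part and lacks the p53 binding part. The name ApoErtTA refers to a doxycycline-dependent activator under Apoe control, and Apoe is active mainly in hepatocytes of the liver. Each genotype gave 1 array of the Affymetrix 430A design and 1 of the 430B design, so there are no replicates, and differences are described by their size without p-values.

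Mitochondria have a ribosome of their own, which translates the few messenger RNAs copied from mitochondrial DNA into subunits of the respiratory chain and the ATP synthase. All of its proteins are encoded in the nucleus, made in the cytosol and imported. Many are counterparts of bacterial ribosomal proteins, and others occur only in mitochondria, where they take the place of shortened ribosomal RNA. Hepatocytes are rich in mitochondria, and mitochondrial ribosomal protein genes are active in nearly every tissue.

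Nearly all of these genes had a signal above the floor in every liver, which is not a detection call. Signals were set against a floor, taken as the middle value over every probe set of an array design after scaling, which was 90.4 on 430A and 140.5 on 430B. Of the 76 genes, 73 were above the floor in all 3 genotypes, none was at the floor in all, and Mrps9, Mrps25 and Mrpl33 were above it in some. By probe set, 98 of 127 on 430A and 23 of 33 on 430B were above it in all 3 genotypes. On each array 47.0% to 52.0% of all probe sets were above it. Mrps25, a mitochondrion-specific protein of the small subunit, had a signal of 134.7 in LT liver, 85.3 in 17kT liver and 89.1 in WT liver, so it passed the floor in LT liver alone and was at least 1.49-fold higher there than in either other liver. Mrpl33, a small protein of the large subunit with a bacterial counterpart, had 86.6 in LT liver, 103.1 in 17kT liver and 146.1 in WT liver, and was at least 1.62-fold lower in LT than in WT liver. The brightest probe set relative to its floor stood for each gene, which was on 430A for 68 genes and on 430B for 8. Over the 68 genes on 430A, the signal had a median of 458.2 in LT liver, 446.6 in 17kT liver and 422.4 in WT liver.

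The mitochondrial ribosomal protein genes as a group had ratios centred close to those of all genes in the 3 comparisons. In LT against WT liver their median log2 ratio was 0.08, against 0.02 over all 12775 measured genes. Of their 76 ratios 46 (60.5%) were above 0, where 51.1% of all genes were. In 17kT against WT liver the median of 75 genes was 0.09, against 0.07 over all 12992 measured genes. Here 42 ratios (56.0%) were above 0, about the share of all genes, 54.8%. In LT against 17kT liver the median of 76 genes was 0.06, against -0.03 over all genes. Again 42 (55.3%) were above 0, where 47.9% of all genes were. The sign of these medians depended on the scaling of the arrays: over 6 scalings the median ran between -0.19 and 0.55 in LT and between -0.11 and 0.76 in 17kT liver, both against WT, and the LT against 17kT median between -0.14 and 0.22. After the median of all genes under the same scaling was taken away, the ranges were -0.03 to 0.16, -0.04 to 0.36 and -0.06 to 0.18. In bulk liver RNA, a change in the share of a cell type and a change in RNA per cell cannot be told apart.

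**Figure D1:**
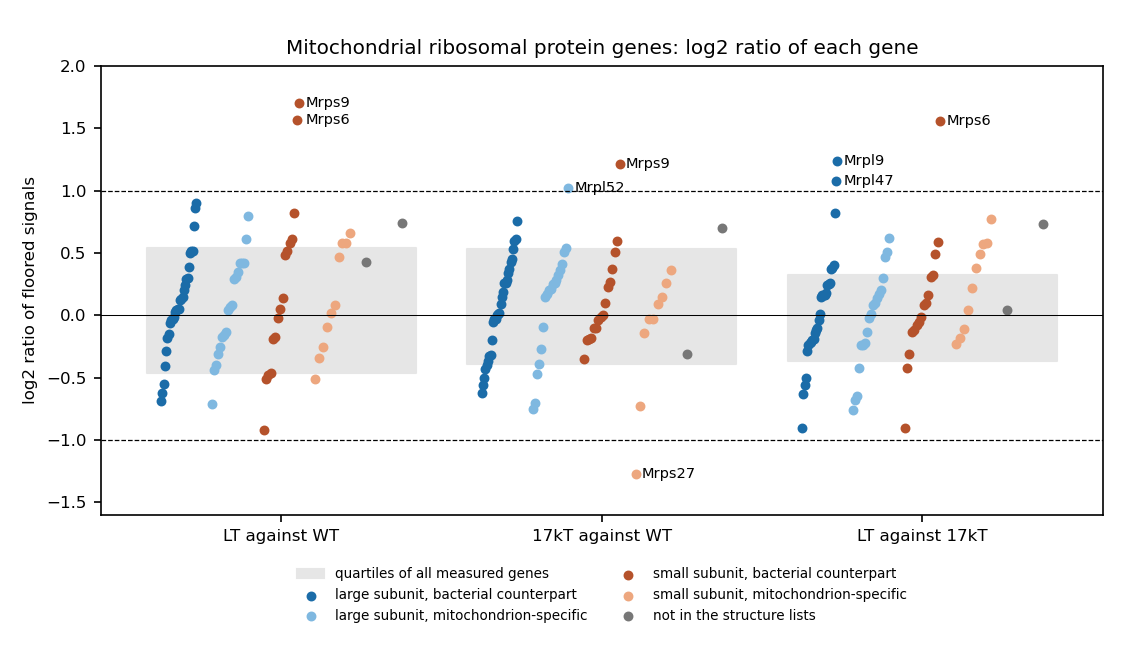
Log2 ratio of each mitochondrial ribosomal protein gene in the 3 comparisons, 1 point per gene, with points of a structural class side by side in order of size. The grey band spans the quartiles of all measured genes and the dashed lines mark 2-fold. Nearly all points lie between the dashed lines, and the named genes are those past 2-fold, Mrps6 and Mrps9 highest in LT against WT and Mrps27 lowest in 17kT against WT.

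Few members passed 2-fold. In LT against WT liver 2 of 76 genes were at least 2-fold higher, Mrps6 and Mrps9, which is 2.6%, where 11.1% of all measured genes were, and 0 were at least 2-fold lower, where 9.01% of all genes were. In 17kT against WT liver 2 of 75 were higher, Mrpl52 and Mrps9, where 9.97% of all genes were, and 1 was lower, Mrps27, where 8.64% of all genes were. In LT against 17kT liver 3 of 76 were higher, Mrps6, Mrpl9 and Mrpl47, where 4.47% of all genes were, and 0 were lower, where 4.23% of all genes were. Mrps6 and Mrpl9 were read on 430B, which taken alone had 6.6% of all genes at least 2-fold higher in LT liver. Mrpl47 was read on 430A, which taken alone had 2.5%. Together 6 genes passed 2-fold in at least 1 comparison and 70 in none, and Mrps9 alone was past 2-fold in both comparisons with WT, which share the WT arrays. As the members are mostly above the floor, the same shares were taken over genes above it on both arrays: 10.7% of 10165 genes were at least 2-fold higher in LT than in WT liver, against 1 of 73 members, and 8.8% of 10502 in 17kT against WT liver, against 1 of 74 members. For LT against 17kT liver it was 4.1% of 10597 genes, against 3 of 74 members, which is about the same share.

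At 1.5-fold the members again had smaller shares than all genes in each direction and comparison. In this measure 11 of 76 members were higher in LT than in WT liver and 4 lower, where 23.1% and 20.0% of all genes were. In 17kT against WT liver 7 of 75 were higher and 5 lower, where 22.7% and 17.6% of all genes were. In LT against 17kT liver 8 of 76 were higher and 6 lower, where 13.0% and 13.8% of all genes were. Members within 1.5-fold made up 80.3% in LT against WT, where 56.8% of all genes were within it. The shares were 84.0% of members and 59.7% of all genes in 17kT against WT, and 81.6% and 73.2% in LT against 17kT. Of all genes above the floor on both arrays, 57.8% in LT against WT, 61.3% in 17kT against WT and 75.1% in LT against 17kT were within 1.5-fold. The SD of the ratios was 0.49 over members and 0.91 over all genes in LT against WT, 0.42 and 0.91 in 17kT against WT, and 0.45 and 0.60 in LT against 17kT. Probe sets of 1 member gene differed among themselves by an SD of 0.47, 0.38 and 0.39 in these comparisons, close to the spread between the members.

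Mrps6, which encodes a small subunit protein with a bacterial counterpart, was the member that stood out in LT liver. Its 430B probe set had a signal of 4484.9 in LT liver, 1518.4 in 17kT liver and 1514.5 in WT liver, so LT liver was high and the others were level. This was 2.96-fold higher in LT than in WT liver, 2.95-fold higher in LT than in 17kT liver, and a log2 ratio of 0.00 between 17kT and WT liver. A second probe set on 430A had 341.6 in LT liver, 232.2 in 17kT liver and 157.4 in WT liver, log2 ratios of 1.12 in LT and 0.56 in 17kT against WT, and of 0.56 between LT and 17kT. Both probe sets were therefore past 2-fold in LT against WT, and they differed on 17kT liver. In all 12 alternatives Mrps6 kept above 2-fold in LT against WT, with log2 ratios between 1.11 and 1.87. These reuse the same probe sets and arrays, and several return the main ratio unchanged. Slc5a3, the myo-inositol transporter gene, overlaps Mrps6 in the RefSeq annotation. Its own probe set had 1490.1 in LT liver, 532.5 in 17kT liver and 460.8 in WT liver, log2 ratios of 1.69 in LT and 0.21 in 17kT against WT, and of 1.48 between LT and 17kT. Whether the probe sets of either gene also bind transcripts of the other was not tested.

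Mrps9, a small subunit protein whose bacterial counterpart reaches toward the transfer RNA sites, was higher in both transgenic livers. Its probe set had 293.2 in LT liver and 208.5 in 17kT liver, against 67.9 in WT liver, which is below the floor. The folds over WT are therefore lower bounds, at least 3.24-fold in LT and at least 2.31-fold in 17kT liver. The other 2 measured probe sets gave smaller differences of the same sign. One had 140.9 in LT liver and 174.5 in 17kT liver, against 91.6 in WT liver. The other had 159.9 in LT liver and 125.4 in 17kT liver, against 100.4 in WT liver. Every probe set of Mrps9 that passed the floor was thus higher in both transgenic livers, with log2 ratios over WT between 0.62 and 1.70 in LT and between 0.32 and 1.21 in 17kT liver.

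Mrps27, a mitochondrion-specific RNA-binding protein of the small subunit, was the only member at least 2-fold lower in any comparison. Its single probe set, on 430B, had 1126.1 in LT liver, 661.1 in 17kT liver and 1598.5 in WT liver. It was 2.42-fold lower in 17kT than in WT liver and 1.42-fold lower in LT than in WT liver. All 11 alternatives that measured it kept it past 2-fold in 17kT against WT. They reuse the same probe set and arrays, and several could not change its ratio. A non-coding transcript annotated inside Mrps27 (6430562O15Rik) had 204.1 in LT liver and 309.2 in 17kT liver, against 33.7 in WT liver. That WT signal is below the floor, and the log2 ratios over WT are lower bounds of 0.54 in LT and 1.14 in 17kT liver.

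Mrpl52, a mitochondrion-specific protein of the large subunit, had 727.7 in LT liver and 848.5 in 17kT liver, against 419.0 in WT liver. It was 2.03-fold higher in 17kT and 1.74-fold higher in LT liver than in WT. Its other measured probe sets were higher in LT than in WT liver as well, with log2 ratios from 0.26, but in 17kT against WT liver they ran down to -0.02, and the call held in 5 of 12 alternatives. Of the genes past 2-fold between the transgenic livers, Mrpl9, a large subunit protein with a bacterial counterpart, had 1648.5 in LT liver, 700.0 in 17kT liver and 882.6 in WT liver. Its probe sets on 430A had log2 ratios of -0.28 and 0.25 for LT against 17kT, where the 430B probe set had 1.24. Mrpl47, also a large subunit protein, had 401.6 in LT liver, 190.0 in 17kT liver and 279.7 in WT liver, while a probe set on 430B had 252.6 in LT liver and 356.3 in 17kT liver. The differences of Mrpl9 and Mrpl47 between LT and 17kT liver thus rest on 1 probe set each, and a second probe set had the opposite sign.

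**Figure D2:**
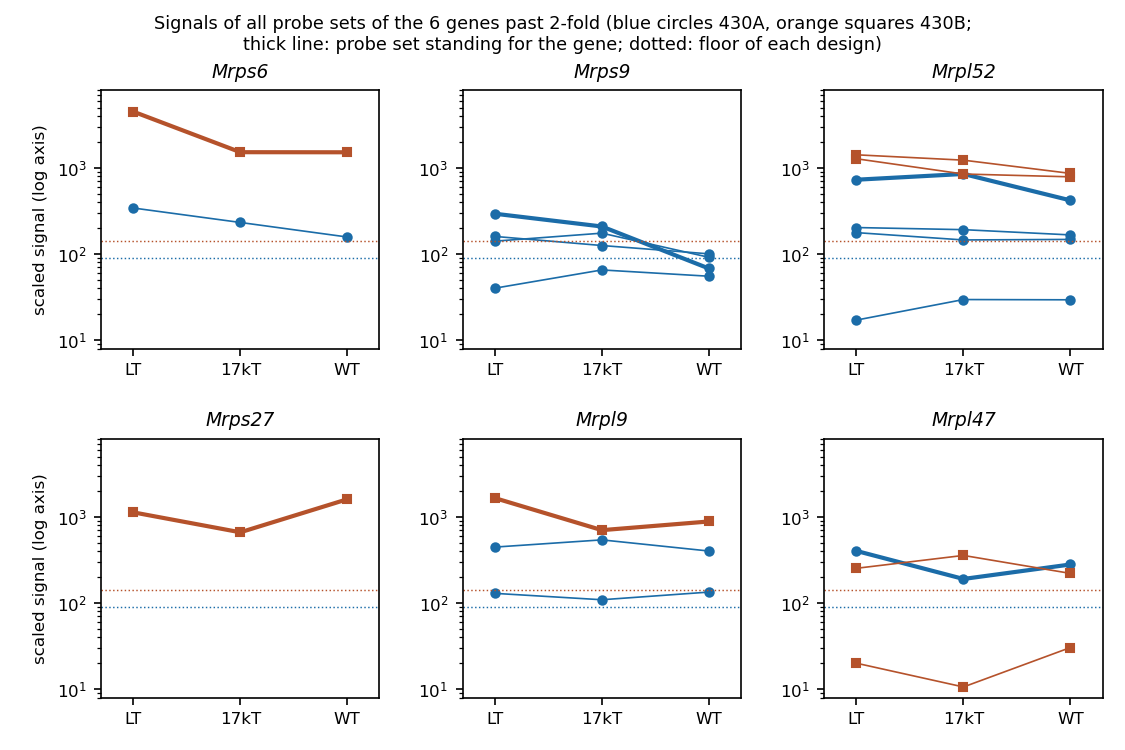
Scaled signal (log axis) of every probe set of the 6 genes past 2-fold, in LT, 17kT and WT liver, 1 array per point. Blue circles are 430A and orange squares 430B probe sets, the thick line is the probe set that stands for the gene, and dotted lines are the floors. Both Mrps6 probe sets are highest in LT liver, Mrps27 is lowest in 17kT liver, and the Mrpl9 and Mrpl47 probe sets cross.

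Among the proteins of the large subunit, Mrpl18 and Mrpl28 were among those higher in LT than in WT liver. Mrpl18, whose bacterial counterpart binds ribosomal RNA, had 453.0 in LT liver and 381.3 in 17kT liver, against 249.6 in WT liver, 1.82-fold and 1.53-fold higher. Tcp1, a subunit gene of the cytosolic chaperonin that overlaps Mrpl18, had 3093.0 in LT liver and 3331.3 in 17kT liver, against 1829.4 in WT liver. Mrpl28 had 938.2 in LT liver and 719.6 in 17kT liver, against 568.5 in WT liver, and was 1.65-fold higher in LT than in WT liver. Of the 2 other measured probe sets of Mrpl28, 1 had 618.3 in LT liver and 646.0 in 17kT liver, against 693.5 in WT liver, log2 ratios of -0.17 and -0.10. Mrpl40, a mitochondrion-specific member, was 1.45-fold higher in 17kT than in WT liver, and its signal was 294.9 in LT liver and 279.6 in 17kT liver, against 193.0 in WT liver. On the probe sets that stand for them, the 3 genes were highest in a transgenic liver and lowest in WT liver.

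Mrpl1, Mrpl32, Mrpl3 and Mrpl58 of the large subunit were also higher in 17kT than in WT liver. Mrpl1, counterpart of a bacterial protein in the stalk where transfer RNAs leave the ribosome, had 151.0 in LT liver and 234.4 in 17kT liver, against 138.5 in WT liver, 1.69-fold higher in 17kT than in WT. Mrpl32 was 1.51-fold and Mrpl3 1.45-fold higher in 17kT than in WT liver, though a probe set of Mrpl3 on 430B had a log2 ratio of -0.03. Mrpl58, a peptidyl-tRNA hydrolase built into the large subunit that frees stalled ribosomes, had 874.4 in LT liver and 849.2 in 17kT liver, against 524.0 in WT liver. That was 1.67-fold and 1.62-fold higher, but a second probe set of Mrpl58 on 430B had log2 ratios of -0.32 in LT and -0.20 in 17kT against WT liver.

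At the lower end of the large subunit were Mrpl11, Mrpl12, Mrpl19 and Mrps30. Mrpl11, at the site where translation factors dock, had 336.8 in LT liver, 628.6 in 17kT liver and 519.1 in WT liver, 1.54-fold lower in LT than in WT and 1.87-fold lower in LT than in 17kT liver. The 3 measured probe sets of Mrpl11 differed in sign, with log2 ratios from -0.65 to 0.10 in LT against WT and from -0.90 to 0.26 in LT against 17kT. Mrpl12, the stalk protein that recruits translation factors and also binds the mitochondrial RNA polymerase, had 790.0 in LT liver, 446.4 in 17kT liver and 687.0 in WT liver, 1.54-fold lower in 17kT than in WT liver and 1.77-fold higher in LT than in 17kT liver. Mrpl19 was 1.46-fold lower in LT than in WT liver. Mrps30, which despite its name sits in the large subunit, had 202.5 in LT liver and 238.9 in 17kT liver, against 331.9 in WT liver, 1.64-fold and 1.39-fold lower, so it was lower in both.

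Several large subunit genes were lower in 17kT liver on every probe set that was measured. Mrpl44, a mitochondrion-specific protein related to ribonucleases, had 398.3 in LT liver, 324.6 in 17kT liver and 525.7 in WT liver, and its 4 measured probe sets on both designs had log2 ratios between -1.09 and -0.70 for 17kT against WT, with the 430B one below the floor in 17kT liver. Mrpl38 had 370.5 in LT liver, 241.0 in 17kT liver and 406.4 in WT liver, with -0.75 on 430A and -0.54 on 430B for 17kT against WT, and 0.62 and 0.56 for LT against 17kT. All 6 measured probe sets of Mrpl15 were lower in 17kT than in WT liver, with log2 ratios from -0.84 to -0.06, and all of the 5 that were measured were higher in LT than in 17kT liver. Mrpl33 was 1.42-fold and Mrpl47 1.47-fold lower in 17kT than in WT liver, the second on 430A alone. Mrpl48 was lower in LT than in 17kT liver on its 3 measured probe sets, with log2 ratios between -0.65 and -0.49. In the same direction, Mrpl50 was 1.69-fold, Mrpl54 1.60-fold, Mrpl1 1.55-fold, Mrpl19 1.47-fold and Mrpl17 1.42-fold lower in LT than in 17kT liver. A second probe set had the opposite sign for Mrpl1, at 0.23, and one on 430A for Mrpl19, at 0.37.

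Among small subunit genes other than Mrps6 and Mrps9, the highest in LT liver were Mrps15 and Mrps22. Mrps15, whose bacterial counterpart helps to start the folding of the small ribosomal RNA, had 441.7 in LT liver and 293.0 in 17kT liver, against 250.3 in WT liver, 1.76-fold and 1.17-fold higher. Mrps22, a mitochondrion-specific protein, had 655.1 in LT liver and 440.8 in 17kT liver, against 413.4 in WT liver, 1.58-fold and 1.07-fold higher. For both genes LT liver was the highest on these probe sets. A second probe set of Mrps15 had 312.4 in LT liver, 263.7 in 17kT liver and 265.3 in WT liver. Its log2 ratio in LT against WT was 0.24. Mrps11, with a bacterial counterpart on the platform of the subunit, was 1.52-fold higher in 17kT than in WT liver.

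Mrps24, counterpart of a bacterial protein at the entry of the messenger RNA channel, was the lowest member in LT liver. It had 238.6 in LT liver, 446.8 in 17kT liver and 450.1 in WT liver, 1.89-fold lower in LT than in WT and 1.87-fold lower in LT than in 17kT liver, and a second probe set had log2 ratios of -0.30 and -0.12. Mrps10 was 1.42-fold, Mrps2 1.40-fold and Mrps5 1.38-fold lower in LT than in WT liver. The probe sets of Mrps5 spread most of all members, from -1.62 to 0.65 for LT against WT and from -1.25 to 0.19 for 17kT against WT, so no direction can be given for it. Mrps36, a gene named for the small subunit whose product was later assigned to the oxoglutarate dehydrogenase complex, had 282.8 in LT liver, 170.2 in 17kT liver and 210.6 in WT liver, 1.66-fold higher in LT than in 17kT liver.

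The paralogs Mrps18a, Mrps18b and Mrps18c descend from 1 bacterial protein, and in the mitochondrial ribosome Mrps18a lies in the large subunit and the other two in the small subunit. Mrps18b had 567.2 in LT liver and 435.2 in 17kT liver, against 719.8 in WT liver, 1.27-fold and 1.65-fold lower. Mrps18a had 412.0 in LT liver and 449.9 in 17kT liver, against 391.2 in WT liver. Mrps18c had 361.5 in LT liver and 374.8 in 17kT liver, against 350.3 in WT liver. Mrps18b was therefore lower in both transgenic livers while its paralogs were within 1.15-fold of WT.

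The members were also split by structural class. The 29 large subunit proteins with a bacterial counterpart had medians of 0.05 in LT against WT, 0.02 in 17kT against WT and 0.01 in LT against 17kT. The 19 mitochondrion-specific proteins of the large subunit had 0.07, 0.21 and 0.01. Their median in 17kT against WT, less that of all genes, ran between 0.04 and 0.52 under the 6 scalings. The 16 small subunit proteins with a bacterial counterpart had 0.09, 0.00 and 0.03. The 10 mitochondrion-specific proteins of the small subunit had 0.05, -0.03 (9 genes) and 0.30. Of these 10, 7 were higher in LT than in 17kT liver, where 47.9% of all genes were. Among the 7, Mrps25 was below the floor in 17kT liver and Mrps27 was read on 430B. Under the 6 scalings the median of 0.30, less the median of all genes, ran between 0.15 and 0.44. For the other classes this range in LT against 17kT reached from -0.14 to 0.17. Mrpl58 and Mrps36 were in no class. Of the Mrps18 paralogs, Mrps18c was counted as having a bacterial counterpart, and Mrps18a and Mrps18b as mitochondrion-specific despite their bacterial descent.

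Genes of the wider mitochondrial translation pathway were set beside the members, and 2 other gene families gave a scale for them. The 41 measured cytosolic ribosomal protein genes had medians of 0.59 in LT against WT and 0.25 in 17kT against WT. Of 41 ratios 37 and 34 were above 0, where 51.1% and 54.8% of all genes were. Less the all-gene median, the medians stayed above 0 under the 6 scalings (0.46 to 0.82 and 0.08 to 0.68). Nuclear genes for subunits of oxidative phosphorylation, the complexes that the mitochondrial ribosome serves, had medians of -0.08 over 70 genes in LT against WT, -0.30 over 72 genes in 17kT against WT and 0.33 in LT against 17kT. In LT against 17kT 64 of 72 of these genes were higher, against 42 of 76 members and 47.9% of all genes. The median of the members lay between those of the 2 families in both comparisons with WT. For LT against 17kT it was 0.06, below both, as the cytosolic ribosomal protein genes had 0.38.

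**Figure D3:**
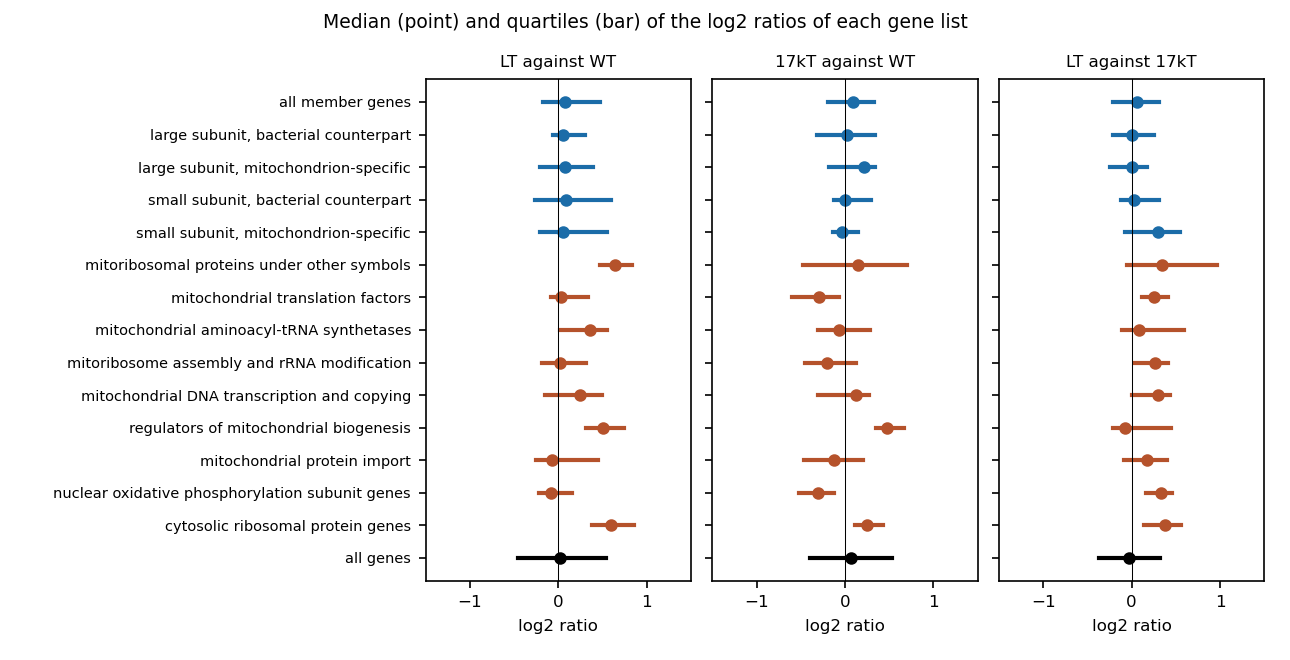
Median (point) and quartile range (bar) of the log2 ratios of the mitochondrial ribosomal protein genes and their structural classes (blue), of other gene lists (orange) and of all genes (black). The members sit near the all-gene median in the 3 panels, while cytosolic ribosomal protein genes lie higher in LT against WT, at 0.59.

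Of 4 mitochondrial ribosomal proteins that carry other symbols, Dap3, a small subunit protein that binds GTP, had 936.1 in LT liver and 1014.8 in 17kT liver, against 601.8 in WT liver. Chchd1 had 697.8 in LT liver and 714.2 in 17kT liver, against 444.2 in WT liver, and Ptcd3 had 418.4 in LT liver, 254.3 in 17kT liver and 431.0 in WT liver. Gadd45gip1, a large subunit protein, had 299.7 in LT liver, 71.2 in 17kT liver (below the floor) and 117.6 in WT liver, 2.55-fold higher in LT than in WT liver and at least 3.32-fold higher in LT than in 17kT liver. It alone of the 4 was past 2-fold.

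The 11 measured translation factors had medians of 0.03 in LT against WT, -0.29 in 17kT against WT and 0.25 in LT against 17kT. Mtif3, which prepares the small subunit for initiation, had 602.6 in LT liver and 603.5 in 17kT liver, against 1290.7 in WT liver, 2.14-fold lower in both. Mtif2, the initiation factor that brings the first transfer RNA, had 1934.3 in LT liver, 765.2 in 17kT liver and 1247.1 in WT liver, 2.53-fold higher in LT than in 17kT liver. Mtrf1l, a release factor, had 509.4 in LT liver, 158.3 in 17kT liver and 232.4 in WT liver, 2.19-fold higher in LT than in WT and 3.22-fold higher in LT than in 17kT liver. In LT against 17kT liver 9 of the 11 factors were higher in LT liver, 2 of them past 2-fold, where 47.9% of all genes were higher and 4.47% at least 2-fold higher. Mtif2, Mtif3 and Mtrf1l were each read by a probe set on 430B. On that design alone 6.6% of all genes were at least 2-fold higher in LT than in 17kT liver, against 2.5% on 430A.

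Of 17 measured genes that charge mitochondrial transfer RNAs, the median was 0.36 in LT against WT, -0.07 in 17kT against WT and 0.08 in LT against 17kT. Nars2, for asparagine, had 463.2 in LT liver and 371.9 in 17kT liver, against 1005.5 in WT liver, log2 ratios of -1.12 and -1.43. Qrsl1, a subunit of the enzyme that makes glutaminyl-tRNA, had 200.1 in LT liver and 132.5 in 17kT liver, against 85.4 in WT liver, at least 2.21-fold higher in LT than in WT. Iars2, for isoleucine, had 205.3 in LT liver and 293.1 in 17kT liver, against 61.7 in WT liver, and was at least 2.09-fold higher in 17kT than in WT liver. Vars2, for valine, had 476.2 in LT liver, 128.7 in 17kT liver and 300.6 in WT liver, at least 2.14-fold lower in 17kT than in WT liver, and Yars2, for tyrosine, had 582.3 in LT liver, 273.3 in 17kT liver and 386.9 in WT liver. The genes past 2-fold against WT thus went both ways. Nars2, Iars2, Vars2 and Yars2 were read on 430B and Qrsl1 on 430A.

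The 26 measured assembly and ribosomal RNA modification genes had medians of 0.02 in LT against WT and 0.26 in LT against 17kT, and -0.20 over 25 genes in 17kT against WT. Ddx28, a helicase of large subunit assembly, was the only one past 2-fold. On 430B it had 644.4 in LT liver, 249.7 in 17kT liver and 631.6 in WT liver. No gene of mitochondrial DNA transcription and copying (14 measured) or of protein import (23 measured in the comparisons with WT) passed 2-fold. Of 11 regulators of mitochondrial biogenesis, 11 had ratios above 0 in LT against WT and 9 in 17kT against WT, where 51.1% and 54.8% of all genes had, with medians of 0.51 and 0.48. Less the all-gene median, these ran between 0.35 and 0.53 and between 0.41 and 0.70 under the 6 scalings. Of these, Pprc1, a coactivator, had 153.5 in LT liver and 206.0 in 17kT liver, against 60.4 in WT liver. Myc had 181.2 in LT liver and 132.9 in 17kT liver, against 42.5 in WT liver. Both WT signals were below the floor, so the folds over WT are lower bounds. Pprc1 was at least 1.7-fold higher in LT and 2.28-fold in 17kT liver, and Myc at least 2.0-fold and 1.47-fold. Gabpb2, a subunit of the transcription factor GABP, had 2604.2 in LT liver and 1915.5 in 17kT liver, against 1377.7 in WT liver, and Gabpa, the DNA-binding subunit, had 214.3 in LT liver and 235.7 in 17kT liver, against 170.0 in WT liver.

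Measurements of the same gene on the 2 array designs agreed only in part. In LT against WT 20 member genes had measured probe sets on both designs, of which 9 had the same sign and 4 differed by 2-fold or more. In 17kT against WT 13 of 21 had the same sign and 2 differed by 2-fold, and in LT against 17kT 10 of 21 and 3. Mrps6, Mrpl52, Mrpl43, Mrpl47, Mrps23, Mrps31, Mrpl3, Mrpl9 and Mrpl48 had the same sign in LT against WT, the first 8 higher in LT and Mrpl48 lower, at -0.44 on 430A and -0.46 on 430B. Mrpl19, Mrpl58, Mrps21 and Mrps5 were higher in LT than in WT liver on 430A and lower on 430B, by at least 2-fold apart. Mrpl35 had log2 ratios of 0.00 and -1.01 in 17kT against WT and Mrpl47 had -0.56 and 0.69. Mrpl13 and Mrpl27 were higher in 17kT than in WT liver on both designs, at 0.15 and 0.45 and at 0.22 and 0.43.

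**Figure D4:**
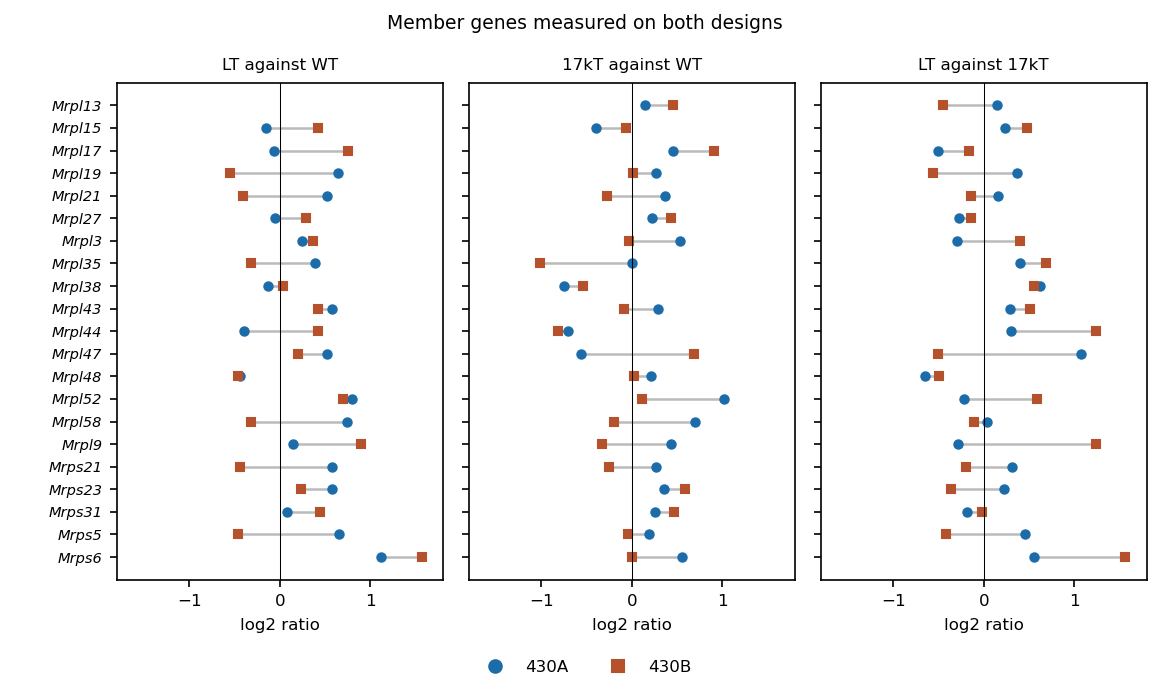
Log2 ratio of each member gene measured on both array designs, with blue circles for 430A and orange squares for 430B joined by a line. Lines that cross 0 are genes whose designs differ in sign, 9 of 20 genes have the same sign in LT against WT, and Mrps6 lies right of 0 on both designs there.

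Probe sets of 1 gene also differed among themselves. Over both designs 34 member genes had 2 or more measured probe sets in LT against WT, of which 16 had 1 sign on all of them and 5 spread by 2-fold or more. In 17kT against WT 20 of 34 had 1 sign and 6 spread by 2-fold, and in LT against 17kT 16 of 35 and 4. Beside the genes already described, Mrpl17 spread from -0.25 to 0.91 and Mrpl21 from -0.67 to 0.37 in 17kT against WT. Probe sets that are present on both designs, 96 with a measured ratio, differed between designs as well. The SD of the differences, divided by the square root of 2 to stand for 1 measurement, was 0.23 to 0.27. Their median, a constant offset, was -0.25 in LT against WT, 0.22 in 17kT against WT and -0.38 in LT against 17kT (430A minus 430B). Ratios of members on 430A and on 430B therefore carry different offsets. Of the genes past 2-fold, Mrps6, Mrpl9 and Mrps27 were read on 430B. Scaled to the probe sets on both designs, the log2 ratio in LT against 17kT was 1.15 for Mrps6 and 0.82 for Mrpl9.

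The promoters of the genes were read for short motifs to see what the members share in sequence. A window of 250 bases before and 50 bases after the start was in the RefSeq promoter table (GRCm38.p6) for 67 of the genes, 73 promoters in all, against 32851 promoters of all genes. Both strands were searched, and a match is a description of letters and not a site. The motif CCGGAAG of ETS factors such as GABP was in 34.2% of member promoters and 8.9% of all promoters. GCGCANGCG, the core of the NRF1 motif, was in 20.5% and 6.2%, and AAGATGGCG, the YY1 motif, was in 11.0% and 1.4%. GGGCGG, the SP1 box, was in 53.4% and 35.7%, while TATAAA was in 6.8% and 13.6%. The E-box CACGTG, which MYC can bind, was in 9.6% and 7.2%, and the E2F forms TTTCCCGC and TTTGGCGC were in 1.4% of member promoters each, and in 1.1% and 0.5% of all. NRF1 and GABP are known as regulators of nuclear genes for mitochondrial proteins.

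**Figure D5:**
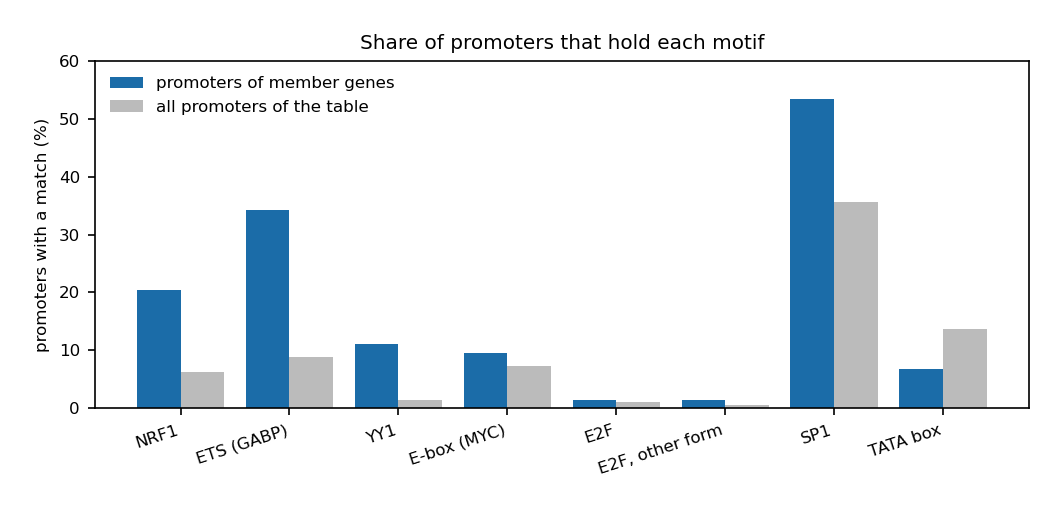
Share of promoters that hold each motif on either strand, for 73 promoters of mitochondrial ribosomal protein genes (blue) and 32851 promoters of all genes (grey). The largest gap is that of the ETS motif, 34.2% against 8.9%.

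The ratios of members with and without a motif were set side by side. The 25 genes with the ETS motif had median log2 ratios of 0.15 in LT against WT and 0.26 in 17kT against WT, and genes without it 0.08 and 0.00. The 15 genes with the NRF1 motif had 0.08 and -0.03, and genes without it 0.10 and 0.15. In LT against 17kT, genes with the ETS motif had 0.01 and those without it 0.08, and for the NRF1 motif it was 0.18 and 0.01. The 34 genes with the SP1 box had 0.13 in LT and 0.15 in 17kT against WT, and genes without it 0.08 and 0.01. The 8 genes with the YY1 motif had 0.06 and 0.07, and genes without it 0.12 and 0.12. Only 5 genes had the E-box, with medians of -0.03 and 0.09 against WT.

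Promoters are given here for the 3 members with the highest mean ratio to WT over both transgenic livers, with matches in capitals. They were taken among members above the floor on all arrays. Whether their motifs bear on the ratios was not tested. Mrpl52 (chr14:54426659-54426958, + strand) holds the ETS motif at -47 and at 3 from the start, read on the other strand. Mrps6 (chr16:92058086-92058385, + strand) holds 4 SP1 boxes between -114 and -79, the first pair overlapping. Mrpl18 (chr17:12916042-12916341, - strand) holds an ETS motif at -240 and an SP1 box on the other strand at -137. None of the 3 holds the NRF1, YY1, E-box, E2F or TATA letters in this window, and the position given is that of the first base of the match.
Mrpl52: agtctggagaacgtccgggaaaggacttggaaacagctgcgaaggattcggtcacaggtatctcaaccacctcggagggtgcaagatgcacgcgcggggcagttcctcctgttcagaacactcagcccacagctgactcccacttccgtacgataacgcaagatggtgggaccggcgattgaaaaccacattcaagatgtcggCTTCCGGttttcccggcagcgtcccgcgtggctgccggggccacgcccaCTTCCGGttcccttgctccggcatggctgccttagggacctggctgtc
Mrps6: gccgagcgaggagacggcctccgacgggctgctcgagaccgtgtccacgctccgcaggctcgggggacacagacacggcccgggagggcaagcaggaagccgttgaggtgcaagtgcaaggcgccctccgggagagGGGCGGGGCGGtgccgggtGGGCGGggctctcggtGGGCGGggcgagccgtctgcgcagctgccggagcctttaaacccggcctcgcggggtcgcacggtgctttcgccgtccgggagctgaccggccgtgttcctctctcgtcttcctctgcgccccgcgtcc
Mrpl18: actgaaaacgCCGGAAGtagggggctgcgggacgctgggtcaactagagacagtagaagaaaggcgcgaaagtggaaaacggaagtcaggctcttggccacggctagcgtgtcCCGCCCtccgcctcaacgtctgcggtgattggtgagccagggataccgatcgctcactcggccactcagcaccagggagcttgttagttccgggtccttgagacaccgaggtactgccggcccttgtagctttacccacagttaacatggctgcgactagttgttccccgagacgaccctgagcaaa

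Features of the livers and arrays moved along with the genotypes. All 13 measured hepatocyte markers were lower in both transgenic livers, with summed signals on 430A of 116113.9 in LT and 93665.2 in 17kT liver, against 186314.9 in WT liver, and none was at the floor. Summed Kupffer cell and macrophage markers were 13022.9 in LT and 15633.3 in 17kT liver, against 14856.1 in WT liver, and endothelial markers 2995.5 and 3725.9, against 4506.0. Stellate cell markers on 430A were 4385.5 and 6126.6, against 5821.9, and those of T and B cells 467.8 and 504.8, against 762.1. Of the 8 T and B cell markers there, 7 were at the floor in LT, 5 in 17kT and 6 in WT liver. The single gene Ighm had 180.9 in LT and 154.4 in 17kT liver, against 455.3 in WT liver. Of 5 bile duct markers all were at the floor in 17kT and WT liver and 4 in LT liver. Erythroid markers summed to 207.6 in LT and 253.3 in 17kT liver, against 1878.9 in WT liver, with 3 of 4 at the floor in each. Pancreatic acinar markers summed to 356.0 and 578.8, against 1713.3. Of these 7 markers, 5 were at the floor in LT, 4 in 17kT and 3 in WT liver. The single gene Cela1 had 158.6 in LT and 209.4 in 17kT liver, against 1154.1 in WT liver. Of 6 skeletal muscle markers on 430A, at least 5 were at the floor in each liver. The ratio of 3' to 5' signal of Gapdh, a measure of RNA or labelling quality, was 3.08 and 3.16 on the LT arrays and 3.53 and 2.85 on the 17kT arrays, against 5.81 and 6.04 on the WT arrays. That of Actb was 2.52 and 2.50 on the LT arrays and 2.13 and 1.72 on the 17kT arrays, against 2.57 and 2.29 on the WT arrays. Fluidics station 2 served for LT and station 1 for 17kT and WT, so station and LT cannot be told apart. The part of these features in the ratios of the mitochondrial ribosomal protein genes was not tested.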

How the data were processed

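Deposited values are signal intensities, 1 per probe set, made by the authors with MAS5 per the submitters' processing notes, whose version the sources used here do not give. Their 2% trimmed mean was 250.03 to 250.12 on every array, so they had been scaled before deposit. The deposited settings files hold other entries, per the file headers, of which the fluidics station was used. The sources used here do not say whether RNA of several animals was pooled.

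Arrays of a design were brought to the same 2% trimmed mean, and signals were floored at the design's median signal, and compared as log2 ratios within a design (Python 3.11.15, pandas 2.3.3, numpy 2.4.6). A gene counted as measured when either array of the pair was above the floor, and its ratio is a bound when only 1 was. The brightest probe set relative to the floor, averaged over arrays, stood for a gene, with _x_at probe sets used only where a gene had no other. Genes were called at 2-fold. The precision of every value is limited by 1 array per genotype and design. The code was tested on simulated arrays. Alternatives were 5 other scalings, 2 other floors, the floor as a pseudocount, probe sets averaged, without _x_at and _s_at probe sets, each design alone, and 3-fold and 1.5-fold calls.

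Symbols came from the platform annotation, and the 76 genes matched RefSeq (GRCm38.p6) by gene identifier. Genes named were the 8 highest and 8 lowest members per comparison above the floor on both arrays, members past 2-fold, at the floor on 1 array, with discordant probe sets or on both designs, the Mrps18 paralogs, and genes of other lists past 2-fold. Gabpa, Gabpb2, Dap3, Chchd1, Ptcd3, Slc5a3, Tcp1 and 6430562O15Rik were named after their values were seen. The members and lists were chosen with earlier results of these data known, and the cytosolic ribosomal and oxidative phosphorylation families were added after the data were seen.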

Additional observations from a re-analysis of the deposited data

How the results depend on the processing

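The median log2 ratio of the mitochondrial ribosomal protein genes in LT against WT was -0.19 with scaling by probe sets shared by the designs and 0.55 with scaling by hybridisation controls, where the all-gene median was -0.27 and 0.40. In 17kT against WT it was 0.76 with the hybridisation controls (all genes 0.40), and in LT against 17kT it ran between -0.14 and 0.22 over the alternatives and so changed sign. Genes at least 2-fold higher in LT than in WT were 13 with the hybridisation controls (21.8% of all genes) and 11 at 1.5-fold (23.1%). They were 1 with the floor at the 75th percentile (9.4%), probe sets averaged (8.3%) or a 3-fold call (3.8%). On 430B alone it was 1 of 22 measured members (10.6% of all genes). Those lower were 2 with probe sets on both designs (16.5% of all genes), 1 with quantile normalization (8.8%) and 4 at 1.5-fold (20.0%). Genes higher in 17kT than in WT were 19 with the hybridisation controls (23.1% of all genes) and 7 at 1.5-fold (22.7%). They were 1 when scaled to the median (8.1%), to probe sets on both designs (7.8%) or by quantiles (9.0%). They were 0 with the floor at the 75th percentile (6.6%) or as a pseudocount (6.7%), probe sets averaged (7.6%) or a 3-fold call (3.4%). On 430B alone it was 0 of 23 measured members (8.0% of all genes). Genes lower in 17kT than in WT were 0 on 430A alone (8.6% of all genes) or at 3-fold (3.9%), and 5 at 1.5-fold (17.6%). On 430B alone they were 2 of 23 measured members, where 7.7% of all genes were. Genes higher in LT than in 17kT were 1 with probe sets averaged (3.2% of all genes), without _x_at and _s_at probe sets (4.4%) or on 430A alone (2.5%). They were 0 at 3-fold (1.1%) and 8 at 1.5-fold (13.0%). On 430B alone they were 3 of 23 measured members, where 6.6% of all genes were. Genes lower in LT than in 17kT were 2 with the hybridisation controls (4.0%) and 6 at 1.5-fold (13.8%). Fold sizes, single designs and probe set rules change the counts by their construction, and for the scalings the cause was not tested.

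The single genes past 2-fold were put through the same alternatives after the data were seen. Mrps6 in LT against WT stayed past 2-fold in 12 of 12 and Mrps27 in 17kT against WT in 11 of 11. Several alternatives cannot change the ratio of a bright gene with few probe sets, and all use the same arrays. These counts are therefore not independent support. In LT against 17kT the sign turned for Mrpl9, at -0.28 on 430A alone and without _x_at and _s_at probe sets, and for Mrpl47, at -0.50 on 430B alone. Mrps9 in LT against WT was past 2-fold in 9 of 11, and fell to 0.07 with the floor at the 75th percentile.

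No paired analysis was possible because each genotype has 1 array per design and the result comes from no test. Depth does not apply to arrays. Signals near the floor limit Mrps9, Mrps25 and Mrpl33, for which ratios to an array below it are bounds.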
